A study of Homo sapiens with 6 samples.

Results

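Aminoacyl-tRNA synthetases are the enzymes that attach each amino acid to its own tRNA, and the levels of their transcripts were examined in MDA-MB-231, a human triple-negative breast cancer cell line. Genes were chosen by symbol alone, and no measured value entered the rule, although earlier results of these data were known when it was set. The symbols taken were the synthetase names with or without the suffixes 1 and 2, the subunits *FARSA* and *FARSB*, the paralog *TARSL2*, and the scaffold proteins *AIMP1*, *AIMP2* and *EEF1E1*. This gave 40 of the 15917 genes in the deposited table, of which 20 are cytosolic synthetases or their subunits, 17 are mitochondrial synthetases and 3 are scaffold proteins. Symbols are printed as deposited, and 18 of the 40 are older than those of GENCODE (*HARS*, for example, is now *HARS1*).

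The series holds 6 total RNA-seq libraries. MDA-MB-231 cells carried a control short hairpin RNA (shCTRL, 2 libraries, wild type in the labels) or a hairpin against *RBMS3*, which encodes an RNA-binding protein (shRBMS3-B3, 2 libraries, and shRBMS3-C3, 2 libraries). All of these were stably transduced populations of a single cell line, and the libraries of a group are labelled as biological replicates. The question of the series was which transcripts change on *RBMS3* knockdown. The table analysed here gives a single mean normalized count per gene over the libraries compared, so no value of a single library or group, no error and no knockdown effect is given below, and the depth of the libraries is unknown. Which of the 6 libraries entered the mean is not given in the sources used here. The mean level of *RBMS3* itself was 271.5 normalized counts, at percentile 43.3 of the listed genes, and this mean cannot show the knockdown.

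Of 4 marker genes of this mesenchymal-like line, 3 were listed at high levels. *VIM*, the intermediate filament vimentin, had a mean of 69335 normalized counts, *AXL* 35387 and *CD44* 10047, whereas *SPARC* was not listed. Among 4 luminal markers, the estrogen receptor gene *ESR1*, *PGR* and *FOXA1* were not listed and *GATA3* had 171.4 normalized counts. The leukocyte marker *PTPRC* was not listed, and the endothelial marker *PECAM1* had 69.0. A gene that is not listed may have been below the lowest level in the table, 26.7 normalized counts.

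Each synthetase recognizes a single amino acid, activates it with ATP and transfers it to the matching tRNAs. Mitochondria translate their own genome with a separate set of synthetases, which are encoded in the nucleus and imported. *GARS* and *KARS* serve both compartments from a single gene, and mitochondrial glutaminyl-tRNA is made indirectly by an amidotransferase. The synthetases fall into class I and class II, which have unrelated catalytic folds. In the cytosol several synthetases are held in the multisynthetase complex by 3 scaffold proteins, AIMP1, AIMP2 and AIMP3, the last encoded by *EEF1E1*. Genes of cytosolic synthetases are also known targets of ATF4, a transcription factor of the amino acid response, which binds as a dimer with C/EBP proteins to the element TGATGNAA.

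That element was looked for on both strands in the RefSeq promoter windows (GRCh38.p14), which run from 250 bases before to 50 bases after an annotated transcription start. Windows were found for 32 of the 40 genes, and 8 had none. The sequences are shown to give the letters around each match. The genes below share the element because they were picked by this search. Each has 7 bases on either side of the match, which is in capitals.

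*AARS*: acttggcTGATGCAActgcgag
*CARS*: tagaatcTGATGCAAccgccgc
*GARS*: cggagcaTGATGAAAtcgccgc
*IARS*: acggaggTGATGCAAcgcgctg
*MARS*: ccctcgcTGATGCAAccggaac
*NARS*: cgctctcTGATGCAAcgccgga
*TARS*: gaccagcTGATGCAAtcgaaag
*YARS2*: acactgcTGATGGAAaaattaa

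TGATGNAA was present in a window of 8 of the 32 genes (25%), against 2.68% of the 10643 listed genes that have a window. A gene with several windows was counted once. Counted per window and not per gene, the share was 3.63% of all 34796 distinct windows. The matches were in 7 of 15 cytosolic genes with a window, 1 of 14 mitochondrial genes and none of 3 scaffold genes. In *AARS*, *CARS*, *IARS*, *MARS*, *NARS* and *TARS* the variable base was C, in *GARS* it was A and in *YARS2* it was G. Most of the matches lay close to this RefSeq start. The first base of the match was at -2 from the start in *CARS*, -4 in *MARS*, -13 in *IARS* and -33 in *GARS*, and downstream at 2 in *TARS* and 14 in *NARS*. The exceptions were *AARS* at -187 and *YARS2* at -197. These positions count from the RefSeq start of the window, which lies inside the GENCODE gene, and so is not its most upstream start, for all of these genes but *YARS2*. The *CARS* sequence lies on the plus strand at chr11:3057411-3057432, opposite to the gene, and that of *NARS* on the minus strand at chr18:57621808-57621829, the strand of the gene. The remaining 6 lie at chr16:70289679-70289700 (*AARS*, plus strand), chr7:30594838-30594859 (*GARS*, minus strand), chr9:92293696-92293717 (*IARS*, plus strand), chr12:57488057-57488078 (*MARS*, minus strand), chr5:33440960-33440981 (*TARS*, minus strand) and chr12:32756080-32756101 (*YARS2*, minus strand).

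The cytosolic genes with and without the element overlapped in level. The 7 genes with a match had a median of 1462 normalized counts per kilobase of transcript and ranged from 409.6 for *NARS* to 2660 for *GARS*. The 8 cytosolic genes with a window and no match had a median of 1110 and ranged from 118.1 for *FARSB* to 2960 for *SARS*. A match describes the letters in the window and not binding of ATF4 in these cells.

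The second sequence sought was CCGGAAG, the core that ETS-family transcription factors bind, which is common in promoters of housekeeping genes. It occurred in a window of 17 of the 32 genes (53.1%), against 22.4% of the listed genes with a window. Counted per window, the share was 10.2% of all windows. By group, it was found for 9 of 15 cytosolic, 7 of 14 mitochondrial and 1 of 3 scaffold genes. *HARS* and *HARS2*, the cytosolic and mitochondrial histidyl-tRNA synthetases, are read in opposite directions from a single stretch of chromosome 5. Their RefSeq starts lie at 140691370 on the minus strand and 140691455 on the plus strand, 85 bases apart. The sequence between the starts and at their edges holds 2 matches, shown here as examples of a promoter shared by both compartments' enzymes, with the match in capitals.

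Match near the *HARS* start, chr5:140691366-140691386, minus strand: tcgatagCCGGAAGtcatcct
Match near the *HARS2* start, chr5:140691440-140691460, plus strand: gctcctcCCGGAAGtgccgaa

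The first match begins at -9 from the *HARS* start and the other at -8 from the *HARS2* start, so that each gene had a match in its own orientation at nearly the same distance. The levels of the pair were unequal. *HARS* had 1034 normalized counts per kilobase and *HARS2* 231.6, a ratio of 4.46. The 2 genes overlap at their 5′ ends in GENCODE, and the libraries were made with a stranded kit.

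Levels were next compared between genes, for which the mean normalized count was divided by the length in kilobases of a representative GENCODE transcript. The cytosolic synthetases were far above the mitochondrial ones. The median was 1225 normalized counts per kilobase over the 20 cytosolic genes (range 30.4 to 2960) and 174.8 over the 17 mitochondrial genes (range 65.9 to 654), a ratio of medians of 7.01. The 3 scaffold genes lay between, with a median of 355.2 (range 273.8 to 869). The median of all listed genes was 136.5, so that 18 of 20 cytosolic, 10 of 17 mitochondrial and 3 of 3 scaffold genes were above it. None of the mitochondrial genes reached the cytosolic median. The ranges nevertheless overlapped, since 6 cytosolic genes were below *IARS2*, the highest mitochondrial gene. These are values of different genes in the same libraries, which are not replicates, and no test was made of the difference.

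**Figure D1:**
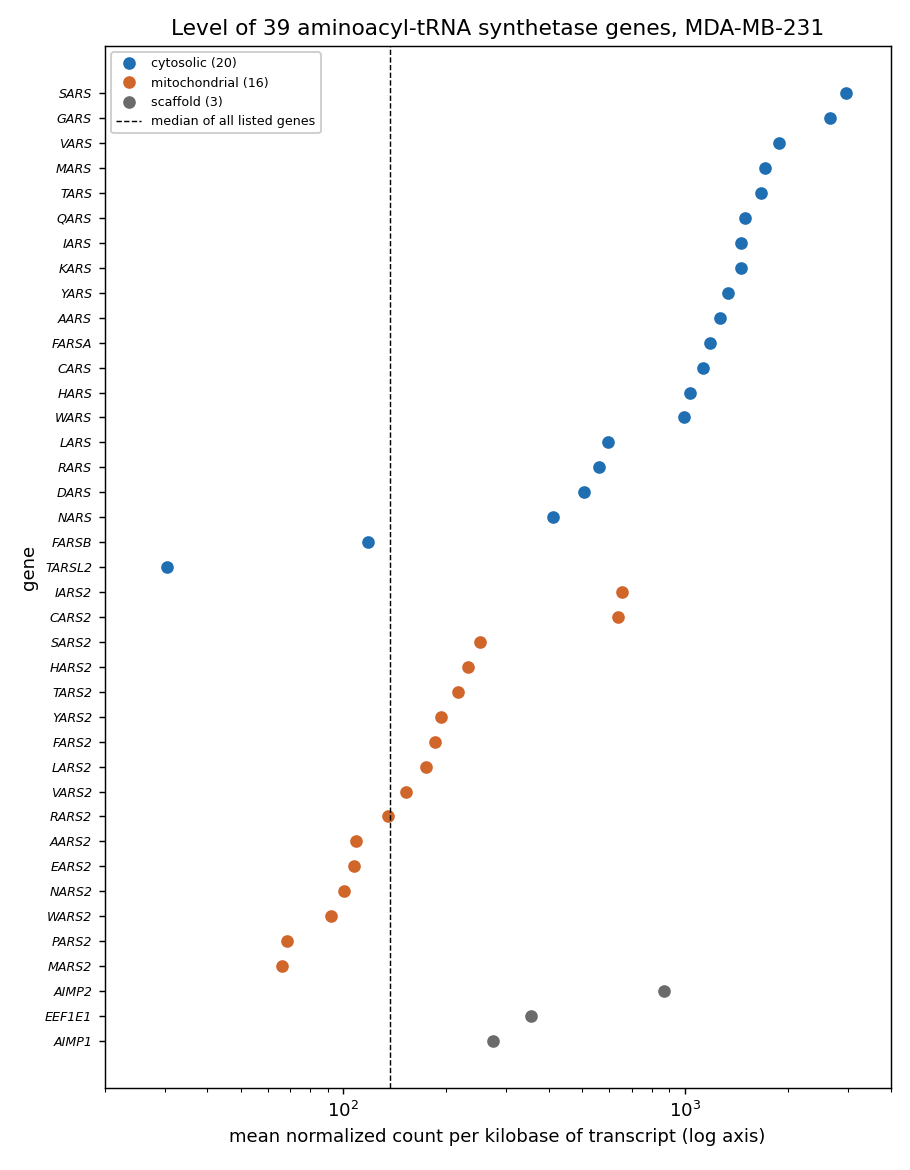
Level of 39 of the 40 genes, as mean normalized count per kilobase of transcript on a log axis, with each gene as a point and no error because the table gives a single mean per gene. The cytosolic genes (blue) have a median of 1225, the mitochondrial genes (orange) 174.8 and the scaffold genes (grey) 355.2, and the dashed line is the median of all listed genes, 136.5.

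Without the division by length, the 40 genes together made up 0.362% of the summed mean normalized count of all listed genes. The cytosolic genes accounted for 0.306%, the mitochondrial genes for 0.046% and the scaffold genes for 0.00986%. The level exceeded the median of the listed genes, 363.8 normalized counts, in 33 of the 40, and the 13 that were in the top 10% of the listed genes were all cytosolic. The 7 genes below the median were *TARSL2* and 6 mitochondrial genes, namely *FARS2*, *RARS2*, *WARS2*, *NARS2*, *MARS2* and *PARS2*. The highest mean belonged to *VARS*, valyl-tRNA synthetase, with 7749 normalized counts at percentile 97.8.

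At the top of the cytosolic order per kilobase stood *SARS*, seryl-tRNA synthetase, which also charges the selenocysteine tRNA with serine. It had 2960 normalized counts per kilobase from a mean of 5665 normalized counts (chromosome 1, 109213918 to 109238182, plus strand, 11 exons). *GARS*, the glycyl enzyme of both compartments, followed at 2660 from a mean of 6481 (chromosome 7, 30580533 to 30634033, plus strand, 17 exons). *VARS* had 1885 from its 7749 normalized counts (chromosome 6, 31777518 to 31795752, minus strand, 30 exons). The order of these genes depends on the length used, since *VARS* has a transcript of 4111 bases and *SARS* of 1914. *MARS*, methionyl-tRNA synthetase, had 1711 per kilobase, and *TARS*, threonyl-tRNA synthetase, 1675. The 5 highest per kilobase of coding sequence shared 4 genes with these 5, as did the 5 highest by mean normalized count without division by length.

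A closely spaced middle group came next. *QARS*, the glutaminyl enzyme, had 1501 normalized counts per kilobase, *IARS*, the isoleucyl enzyme, 1462 and *KARS*, the lysyl enzyme of both compartments, 1460. *YARS*, for tyrosine, had 1338, *AARS*, for alanine, 1264 and *FARSA*, the alpha subunit of the phenylalanyl enzyme, 1187. *CARS*, for cysteine, had 1127, *HARS* 1034 and *WARS*, for tryptophan, 995. *WARS* is known as an interferon-inducible gene. Since neighbouring genes in this order differ by little and no replicate spread is given, their order is not established.

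The lower cytosolic genes were separated from this group by a gap between 995 and 596.7 normalized counts per kilobase. *LARS*, leucyl-tRNA synthetase, had 596.7, *RARS*, for arginine, 562.2, *DARS*, for aspartate, 507.8 and *NARS*, for asparagine, 409.6. The lowest was *TARSL2*, a paralog of *TARS*, with 30.4 normalized counts per kilobase from a mean of 105.7 (chromosome 15, 101653596 to 101724473, minus strand, 19 exons). *TARS* exceeded *TARSL2* 55.1 times per kilobase although their protein sequences were 72.1% identical, and the representative transcripts of the pair shared no run of 31 bases. The highest cytosolic gene exceeded the lowest 97.4 times, and 25.1 times when *TARSL2* was left out.

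*FARSA* and *FARSB* encode the alpha and beta subunits of cytosolic phenylalanyl-tRNA synthetase, a tetramer that holds equal numbers of each. *FARSB* had 118.1 normalized counts per kilobase, below the median of the mitochondrial genes, and *FARSA* exceeded it 10.0 times. This ratio depends strongly on the length taken. The representative *FARSB* transcript has 6761 bases, of which 4972 are 3′UTR, and per kilobase of coding sequence the ratio was 3.12. The mean normalized counts themselves, 2150 for *FARSA* and 798.5 for *FARSB*, had a ratio of 2.69.

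Among the mitochondrial genes, *IARS2* and *CARS2* stood apart from the rest. *IARS2*, for isoleucine, had 653.7 normalized counts per kilobase from a mean of 2308 (chromosome 1, 220094132 to 220148041, plus strand, 23 exons). *CARS2*, for cysteine, had 634.9 from a mean of 1167 (chromosome 13, 110641412 to 110713603, minus strand, 15 exons). The next gene, *SARS2*, was at 251.2. The representative *SARS2* transcript shares 77.2% of its 31-base runs with an overlapping gene model that is not listed, so its level depends on how the authors' counting split such reads. *HARS2* followed at 231.6, *TARS2* at 216.4 and *YARS2* at 193.2. *FARS2*, which acts as a single chain unlike its cytosolic counterpart, had 185.2, *LARS2* 174.8 and *VARS2* 152.5. For *VARS2*, 98.4% of the 31-base runs are shared with another gene model that is not listed, and its level is uncertain for the same reason. Among the other mitochondrial genes the shares were smaller, up to 7.3% for *TARS2*, with 6.4% for *RARS2*, 5.1% for *EARS2* and 5.0% for *HARS2*.

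The lower end of the mitochondrial order held *RARS2* at 135.1 normalized counts per kilobase, *AARS2* at 108.8, *EARS2*, the glutamyl enzyme, at 107.6, *NARS2* at 100.1 and *WARS2* at 91.8. *PARS2*, the prolyl enzyme, had 68.2 from a mean of 160.6 (chromosome 1, 54756898 to 54764523, minus strand, 2 exons). *MARS2*, which has a single exon, had 65.9 from a mean of 199.6 (chromosome 2, 197705369 to 197708395, plus strand). The highest mitochondrial gene exceeded the lowest 9.92 times, less than the 97.4 and 25.1 times of the cytosolic genes with and without *TARSL2*. The value of 25.1 rests on *FARSB* at 118.1, which depends strongly on its length, and the next cytosolic gene, *NARS*, was at 409.6. By mean normalized count the comparison was reversed. The cytosolic genes without *TARSL2* ran from 798.5 to 7749, and the mitochondrial genes from 160.6 to 2308, which is relatively the wider spread.

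For 14 amino acids the cytosolic and the mitochondrial enzyme are products of separate genes in a plain pair. The cytosolic gene was higher per kilobase in 14 of these 14 pairs, with a median ratio of 5.70. The ratio was highest for methionine, where *MARS* exceeded *MARS2* 26.0 times, and 15.8 times per kilobase of coding sequence. It was 12.4 for valine, 11.8 for serine, 11.6 for alanine and 10.8 for tryptophan. The valine and serine ratios carry the uncertainty of *VARS2* and *SARS2* given above. At 7.74 for threonine and 6.93 for tyrosine the ratio was nearer to the median.

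The lower ratios belonged to histidine at 4.46, arginine at 4.16, asparagine at 4.09, leucine at 3.41, isoleucine at 2.24 and cysteine at 1.78. The arginine, asparagine and leucine pairs hold low cytosolic genes described above, whereas the isoleucine and cysteine pairs hold the 2 highest mitochondrial genes. *FARSA* exceeded *FARS2* 6.41 times.

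**Figure D2:**
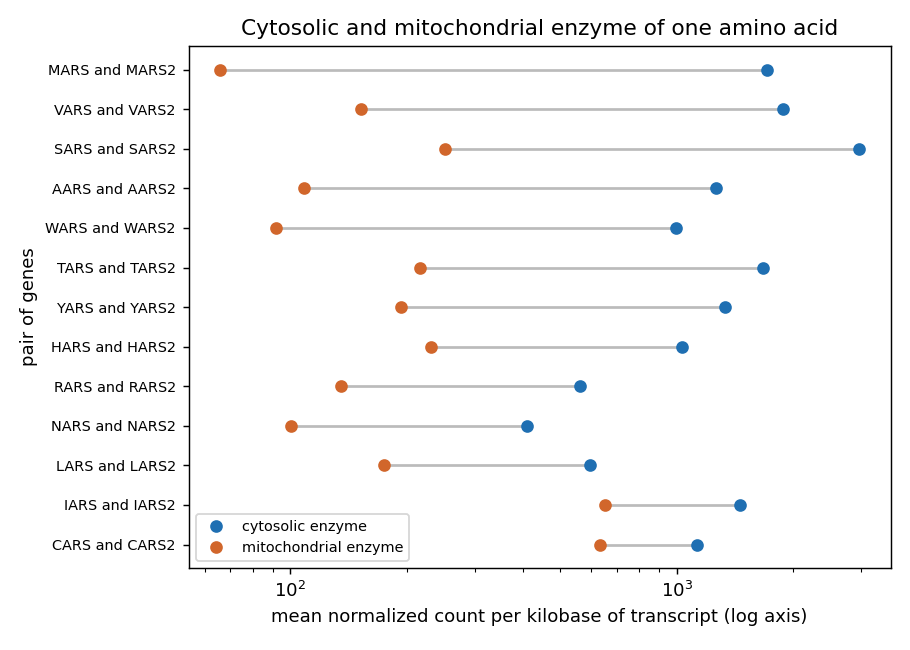
Level of the cytosolic (blue) and mitochondrial (orange) enzyme of 13 of the 14 amino acids, as mean normalized count per kilobase of transcript on a log axis, ordered by their ratio. The cytosolic gene is to the right in all 13 pairs drawn, and the distance shrinks from a ratio of 26.0 for *MARS* and *MARS2* to 1.78 for *CARS* and *CARS2*.

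The proteins of a pair were mostly distant relatives. Identity over a global alignment of the translated GENCODE coding sequences had a median of 30.7% and was under 30% in 7 of the 14 pairs. *WARS* and *WARS2* were the least alike at 22.5%, and *HARS* and *HARS2* the most alike at 72.3%. *TARS* and *TARS2* were 52.5% identical, *VARS* and *VARS2* 50.9%, *AARS* and *AARS2* 46.5% and *CARS* and *CARS2* 41.3%. None of the 14 pairs shared a run of 31 bases between the representative transcripts. The cytosolic enzymes had a median of 691.5 residues (range 471 to 1264) and the mitochondrial ones 564 (range 360 to 1063).

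The median levels of the catalytic classes were close to each other. In the cytosol the 9 class I genes had a median of 1338 normalized counts per kilobase and the 11 class II genes 1187. Among mitochondrial genes the 9 of class I had 152.5 and the 8 of class II 190.8. The cytosolic class I proteins had a median of 831 residues and those of class II 589, and the mitochondrial ones 578 and 512.

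Of the synthetases in the multisynthetase complex, 7 were among the 40 genes. Their median was 1460 normalized counts per kilobase, from 507.8 for *DARS* to 1711 for *MARS*, with *QARS* (1501), *IARS* (1462) and *KARS* (1460) close together and *LARS* (596.7) and *RARS* (562.2) lower. The 13 other cytosolic genes had a median of 1187 and spread from 30.4 to 2960, a range that contains that of the complex. Per kilobase the complex members lay within a narrower range and included neither the highest nor the lowest cytosolic genes. They are also fewer, 7 against 13, and by mean normalized count *IARS* (6553) came next after *VARS* (7749). *EPRS*, the fused glutamyl and prolyl enzyme of the complex, was not matched by the symbol rule. It had 769.5 normalized counts per kilobase from a mean of 3741, between *WARS* and *LARS*.

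The 3 scaffold genes were unequal. *AIMP2*, whose product binds several of the complex enzymes, had 868.6 normalized counts per kilobase from a mean of 1041 (chromosome 7, 6009255 to 6023834, plus strand, 4 exons). *EEF1E1* had 355.2 from a mean of 371.9 (chromosome 6, 8073360 to 8102559, minus strand, 4 exons). *AIMP1*, whose cleaved form is known as a secreted cytokine, had 273.8 from a mean of 759.1 (chromosome 4, 106315544 to 106349456, plus strand, 7 exons). *AIMP2* was thus above *AIMP1* with or without the division by length, and the difference was larger per kilobase, since their transcripts have 1198 and 2773 bases. *EEF1E1* shares 40.2% of its 31-base runs with other gene models, 35.7% with the readthrough transcript *EEF1E1-BLOC1S5*, which is not listed.

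The neighbouring steps of the pathway were described from a fixed list of 18 further genes, all of which were listed in the table. The enzymes that finish mitochondrial charging were at the level of the mitochondrial synthetases. *GATB*, *QRSL1* and *GATC* encode the amidotransferase that makes glutaminyl-tRNA, and had 269.7, 70.6 and 147.2 normalized counts per kilobase. *MTFMT*, which formylates the initiator methionyl-tRNA, had 72.1, close to *MARS2* at 65.9.

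The selenocysteine enzymes were low. *PSTK*, the kinase that acts on seryl-tRNA, had 118.0 normalized counts per kilobase, and *SEPSECS*, which forms selenocysteine on the tRNA, had 14.5. Among the genes that remove wrongly attached amino acids, *AARSD1* had 554.2, *DTD1* 344.4 and *DTD2* 71.3.

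Among the elongation factors, *EEF1A1*, which carries charged tRNA to the ribosome, had 13206 normalized counts per kilobase, above all 20 cytosolic synthetases. *EEF1A2*, its paralog of muscle and neurons, had 646.4, below the cytosolic median. The exchange factor subunits *EEF1B2*, *EEF1D* and *EEF1G* had 10293, 7257 and 21010, and the translocase *EEF2* 13366. In mitochondria the corresponding factor *TUFM* had 2247, above all 17 mitochondrial synthetases, while its exchange factor *TSFM* had 257.3 and the translocase *GFM1* 111.0.

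To set enzyme level beside the use of each amino acid, residue shares were computed over 12396 listed proteins, each weighted by its level per kilobase. Leucine was the most used at 9.28% of residues, yet *LARS* was among the lower cytosolic genes at 596.7 normalized counts per kilobase. Serine made up 7.35%, with *SARS* the highest at 2960. Tryptophan was the rarest at 0.988%, and *WARS* at 995 exceeded *LARS*. The low place of *LARS* depends on the division by length. By mean normalized count *LARS* was above *WARS*, at 2840.5 against 2625.8. Over the 17 amino acids with a plain cytosolic enzyme, Pearson's r was 0.23 and Spearman's rho 0.22. The points share the same libraries, the coding lengths differ, and the correlation is given only as a description across genes.

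The mitochondrial genome encodes 13 proteins, and their composition was set beside the 17 mitochondrial enzymes. Here each protein was counted once and not weighted by level, so the shares are not measured like those above. Leucine made up 17.0% of their residues, with *LARS2* at the median of 174.8 normalized counts per kilobase. Cysteine made up 0.581%, and *CARS2* was the second highest at 634.9. Pearson's r was -0.0098 and Spearman's rho 0.06.

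**Figure D3:**
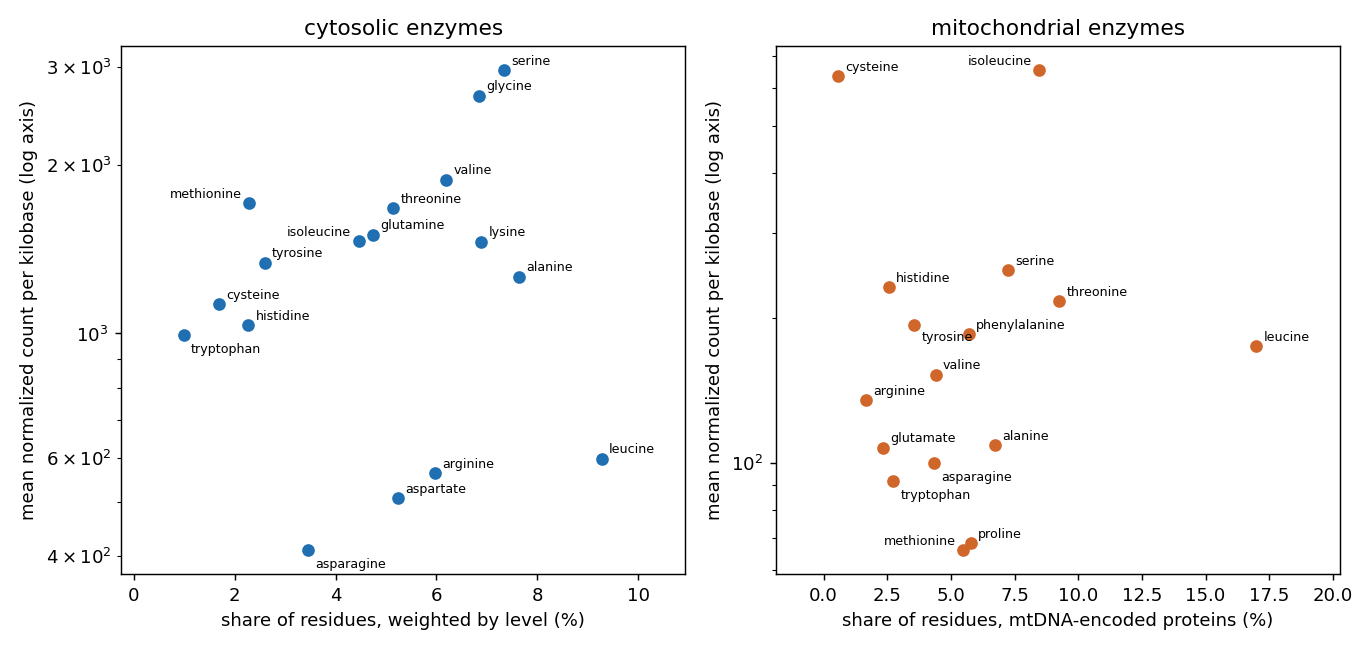
Level of each synthetase gene (mean normalized count per kilobase, log axis) against the share of its amino acid in percent of residues, for 17 cytosolic enzymes with shares over 12396 listed proteins weighted by level (left) and 16 of the 17 mitochondrial enzymes with shares over the 13 proteins of mitochondrial DNA (right). The points are scattered, with Pearson's r of 0.23 on the left and, over all 17, -0.0098 on the right, and leucine is the most used amino acid in both panels.

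RBMS3 is known as a protein that binds AU-rich RNA, and the study writes its preferred AUA element as 7 bases: a base other than C, then A or T, then ATA, then A or T, then A. This element was counted in the 3′UTR of each representative transcript, with overlaps. The examples below come from genes with many matches and were chosen to show how they look, with the element in capitals and 7 bases on either side. They include the first match after the stop codon in *FARSB* and *AIMP1* and the match nearest to the transcript end in *IARS2*.

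*FARSB*, chr2:222571753-222571773, minus strand: tgatgttTAATAAAgtagaaa
*AIMP1*, chr4:106347728-106347748, plus strand: ttaaaagTAATAAAgagaaat
*IARS2*, chr1:220148011-220148031, plus strand: atactgaAAATAAAggcattc

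At least 1 match was present in 31 of the 40 genes (77.5%), against 84.8% of the 12351 listed genes with a 3′UTR. The share was 75% for the 20 cytosolic and 82.4% for the 17 mitochondrial genes, and 2 of the 3 scaffold genes had a match. The share over the 40 genes was slightly below that of all listed genes, and that of the mitochondrial genes was close to it. The difference was not tested. The 3′UTRs of the 40 genes were also short, with a median of 516.5 bases (365 for cytosolic and 702 for mitochondrial genes) against 1378 for all listed genes, while their A+U content, at a median of 58.4%, was close to the 57.9% of all.

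Matches were concentrated in a few genes. *FARSB* had 13 in its 4972 bases, *AIMP1* 10 in 1764, *DARS* 8 in 1435 and *IARS2* 7 in 406. *TARS2* and *EARS2* had 6 each, and *IARS* and *MARS2* 5 each. In *TARS2*, 5 of the matches overlap within a run of repeated AAAT near the transcript end. Overlapping matches also enter the counts of *FARSB*, *DARS*, *IARS2*, *EARS2*, *IARS* and *MARS2*, so these have fewer separate sites than matches. At the other extreme, *VARS*, *QARS*, *KARS*, *HARS*, *RARS*, *CARS2*, *SARS2*, *VARS2* and *AIMP2* had none, and the longest 3′UTR among these was the 352 bases of *HARS*.

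Many of the matches contain the letters of the polyadenylation signal, which does not by itself mean that they act as one. Of 106 matches in the 40 genes, 55 contain AATAAA, the usual signal for cleavage and polyadenylation, and 27 end within 40 bases of the transcript end. The matches near the end include some without AATAAA. The same shares were not computed over the matches of all listed genes, whose 3′UTRs are longer. Neither count can therefore be read as particular to these genes. All 3 examples contain AATAAA, and the *IARS2* match ends 17 bases before the transcript end. Those of *FARSB* and *AIMP1* end 4861 and 1715 bases before it. In *SARS*, *GARS* and *TARS*, which are among the 5 highest cytosolic genes, the single match contains AATAAA, and both matches of *MARS* do. The single matches end 78, 134 and 15 bases before the transcript end, in the same order.

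**Figure D4:**
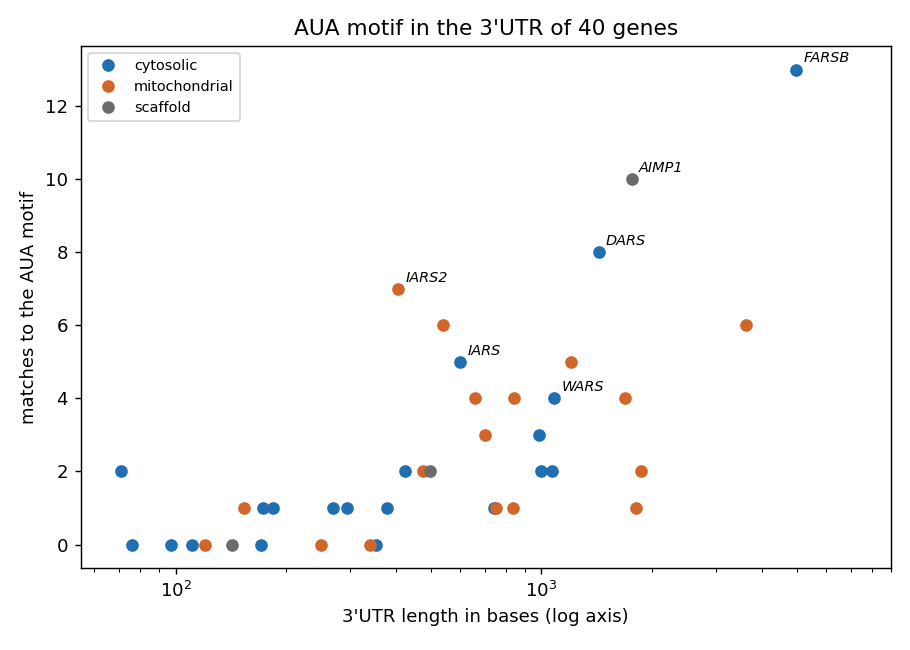
Number of matches to the AUA element against the 3′UTR length in bases (log axis), with each of the 40 genes as a point coloured by group. The most matches, 13, are in the 4972 bases of *FARSB*, while *IARS2* stands out among shorter ones with 7 matches in 406 bases. In both genes some of the matches overlap.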

How the data were processed

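Total RNA of MDA-MB-231 cells (shCTRL, shRBMS3-B3 and shRBMS3-C3, 2 libraries each) was sequenced after ribosomal cDNA depletion. The processing notes of the submitters name Salmon, DESeq2 and hg38, without versions. The authors deposited a single table, whose signal column holds the mean over libraries of counts divided by size factors. Its other columns hold the authors' own comparison (fold change, standard error, statistic, p and adjusted p) and were not used. Hence no knockdown effect is given, no test was made and no error can be stated.

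Ensembl identifiers linked 15829 of the 15917 genes to GENCODE release 44 (GRCh38). Lengths are those of the MANE Select, Ensembl canonical or longest coding transcript. Identity was counted over global alignments with BLOSUM62 (gap opening -11, extension -1). Transcripts were compared by shared runs of 31 bases. Promoter windows came from RefSeq. One gene and one sequence are not reported here by name and enter only the counts and medians. The other members are named, with the highest, the lowest, the pairs, the complex and the genes of both compartments described, and the members and lists were chosen with earlier results of these data known. Functions were tested on simulated data. Python 3.11.15, numpy 2.4.6, pandas 2.3.3, SciPy 1.17.1, Biopython 1.88 and matplotlib 3.10.9 were used.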

Additional observations from a re-analysis of the deposited data

How the results depend on the processing

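The ratio of the cytosolic to the mitochondrial median, 7.01 per kilobase of transcript, ranged from 5.62 to 6.79 under 7 alternatives. It was 5.62 with coding length, 5.74 without division by length, 5.83 for means, 6.43 among genes above the median level, 6.50 for amino acids with separate genes, 6.62 without *GARS* and *KARS* and 6.79 with *EPRS* added. The share of the summed level, 0.362%, became 0.481% of genes with a coding sequence and 0.431% without the 10 genes of highest level, and the 33 genes above the median became 29 and, per kilobase, 31. Of the 17 single ratios of 2 genes, 2 moved by more than 1.5 times with coding length, *MARS* over *MARS2* to 15.8 and *FARSA* over *FARSB* to 3.12, since the untranslated parts then no longer enter the length. No paired analysis was possible because each gene has a single mean over libraries. For the same reason the alternatives planned for counts were not run, namely size factors, the filter on low counts, each replicate left out and each hairpin alone. Depth is unknown and limits what can be said of neighbouring levels.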
